A study of Homo sapiens with 20 samples.

Results

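The Mediator kinase module is described here by the H3K27ac marks around its 6 genes, MED13, MED13L, MED12, CDK8, CDK19 and CCNC, out of 20007 protein-coding genes of the GENCODE release 44 annotation. H3K27ac ChIP-seq recovers chromatin that carries acetylated lysine 27 of histone H3, a mark of active promoters and enhancers. Peaks and super-enhancers were assigned to a gene where they overlapped its body extended by 150 kb on each side for MED13 and by 10 kb for the others. The libraries came from HCT-116 cells, an established human colorectal carcinoma line, either wild type (WT) or with FBXW7 knocked out (KO), and the sources used here do not state whether the KO line is 1 clone. Both genotypes had received esiRNA, a pool of short interfering RNAs, either a control (esiCT) or one against HDAC4 (esiHDAC4), for 48 h. Oxaliplatin (OXPT), a platinum drug, was then present at 50 µM for 24 h or absent (UNT). Each of the 8 combinations had 2 libraries, A and B, so that every cell in the series, controls included, had been transfected. MED13 was chosen by the super-enhancer calls near it, which 7 WT libraries had out of 8 and no KO library had, and the other genes as its partners in the module. Every comparison of KO with WT at MED13 is therefore given as a description with no test.

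The kinase module is a detachable part of Mediator, the complex that links transcription factors on enhancers to RNA polymerase II. CDK8 and its paralog CDK19 are its alternative kinases, CCNC encodes cyclin C, their activating partner, MED12 switches the kinase on, and MED13 or its paralog MED13L ties the module to core Mediator. FBXW7 is the substrate receptor of a ubiquitin ligase for which MED13 and MED13L proteins are known substrates. H3K27ac at these genes measures chromatin and neither protein amount nor the loss of FBXW7 or HDAC4, so the labels could not be checked by it.

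The deposited lists held 1752 to 27927 peaks and 66 to 1265 super-enhancers per library, and the KO B libraries were short, with 1752 to 8216 peaks against at least 10562 in every other library. Joined across libraries, the peaks formed 58860 regions, of which 472 were called in all 16. The start sites of the epithelial genes EPCAM, KRT8, KRT18 and KRT19 carried peaks in 15, 15, 16 and 15 of the 16 libraries, CDX2 in 10, whereas the colon markers CDX1 and GPA33 had none and the blood genes PTPRC, CD3E and SPI1 had none. COL1A1, a fibroblast collagen gene, had one in 11 libraries and COL1A2 in 0. In bulk chromatin, fewer cells with the mark and less mark per cell cannot be told apart.

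The windows of the 6 genes held 35 of the joined regions: 21 at MED13, 6 at MED13L, 4 at CDK19, 2 at CCNC and 1 each at CDK8 and MED12. MED13 lies on the minus strand at chr17:61942605-62065278 (hg38). Upstream of it, in sequence that GENCODE gives as intergenic, 4 elements overlapped the super-enhancer as joined across libraries and were numbered by distance. Only in WT esiCT UNT A did the called super-enhancer reach all 4. E1 spanned chr17:62142522-62145233 with its strongest summit at -78.3 kb from the MED13 start site (negative positions lie upstream), E2 spanned chr17:62162288-62167941 at -101 kb, E3 spanned chr17:62170845-62171804 at -106 kb, and E4 spanned chr17:62178946-62180448 at -115 kb. The 300 bases around the strongest summits of E2 and E4 are shown because both elements lay in the super-enhancer in every library that had it. They are at chr17:62166095-62166394 and chr17:62179862-62180161, plus strand of hg38.
E2: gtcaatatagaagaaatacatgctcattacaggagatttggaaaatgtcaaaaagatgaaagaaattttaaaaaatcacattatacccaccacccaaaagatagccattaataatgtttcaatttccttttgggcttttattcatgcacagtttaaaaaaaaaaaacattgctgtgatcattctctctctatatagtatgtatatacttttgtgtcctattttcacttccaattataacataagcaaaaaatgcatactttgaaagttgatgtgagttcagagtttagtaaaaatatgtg
E4: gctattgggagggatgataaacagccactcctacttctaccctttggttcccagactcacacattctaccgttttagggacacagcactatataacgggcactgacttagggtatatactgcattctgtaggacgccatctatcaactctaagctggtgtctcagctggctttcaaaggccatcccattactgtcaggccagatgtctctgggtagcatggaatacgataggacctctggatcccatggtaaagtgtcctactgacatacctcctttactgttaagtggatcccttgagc
Motif matches would be in capitals, and E2 and E4 held none of the 7 motifs searched on both strands, which were TEAD (GGAATG), AP-1 (TGANTCA), TCF/LEF (ATCAAAG), FOX (GTAAACA), ETS (CCGGAAG), SP/KLF (GGGCGG) and MEF2. Among windows of the same length at all 58860 regions, 14.8% held the TEAD letters, 7.8% the AP-1, 3.18% the TCF/LEF, 3.48% the FOX, 2.47% the ETS, 18.9% the SP/KLF and 4.73% the MEF2 motif. GC content was 28.3% in E2 and 47.7% in E4.

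Of the 6 genes, 5 had promoter entries in the RefSeq table (GRCh38.p14), 8 in all. The MED13L promoter (chr12:116277644-116277943, minus strand) and the MED12 promoter (chrX:71118346-71118645, plus strand) are shown because the former was the most often marked of the 5 and the latter the least. Capitals mark the SP/KLF letters on either strand.
MED13L: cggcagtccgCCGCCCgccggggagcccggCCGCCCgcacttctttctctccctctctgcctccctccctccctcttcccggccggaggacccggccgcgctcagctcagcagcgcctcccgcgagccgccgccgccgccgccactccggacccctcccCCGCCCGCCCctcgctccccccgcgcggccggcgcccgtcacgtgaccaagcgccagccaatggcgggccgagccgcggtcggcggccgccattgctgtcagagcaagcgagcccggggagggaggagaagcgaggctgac
MED12: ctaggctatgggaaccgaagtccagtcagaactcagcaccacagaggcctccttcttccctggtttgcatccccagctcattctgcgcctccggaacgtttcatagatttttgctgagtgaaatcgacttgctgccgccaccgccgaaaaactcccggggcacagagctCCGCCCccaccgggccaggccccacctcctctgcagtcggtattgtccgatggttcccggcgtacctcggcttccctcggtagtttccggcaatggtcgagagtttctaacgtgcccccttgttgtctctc
MED13L held 4 such matches, 2 of them sharing bases, at 78.3% GC, and MED12 held 1 at 59% GC. SP/KLF letters were in 45% of 35116 RefSeq promoters of this length. The CDK8 entry held 1, the 3 CDK19 entries held 1, 1 and 3, and both CCNC entries held none of the 7 motifs.

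**Figure D1:**
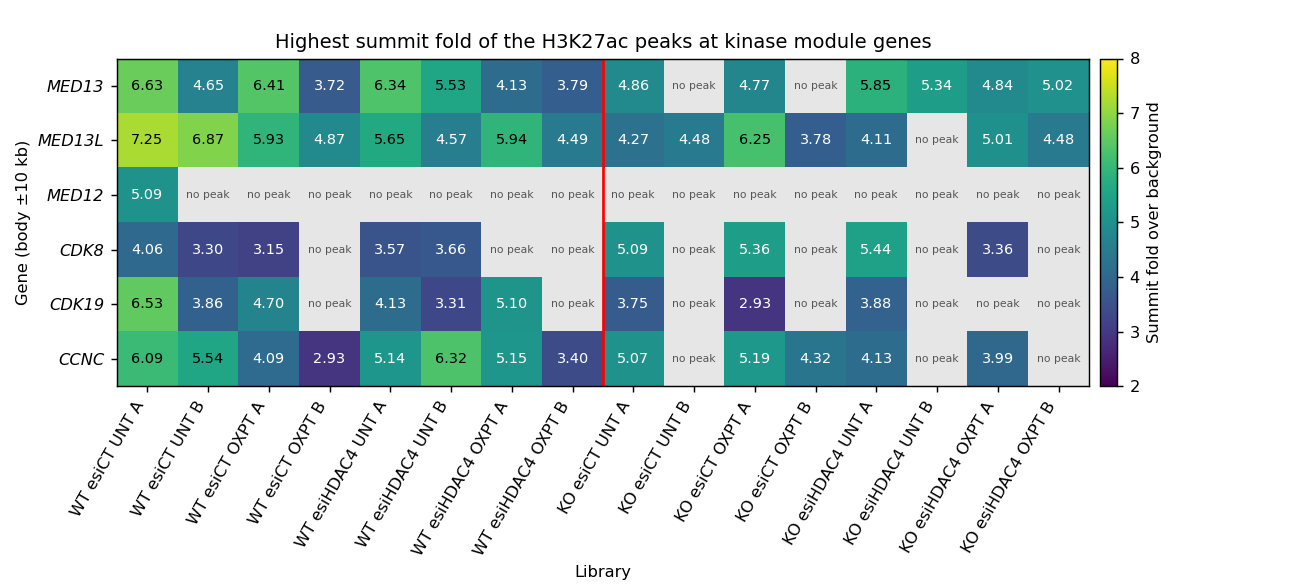
Highest summit fold within 10 kb of each gene body (colour, fold over local background as deposited) for the 6 genes in the 16 libraries, with grey for libraries with no peak there. MED13, MED13L and CCNC were marked in 14, 15 and 13 libraries, CDK8 and CDK19 in 9 each and MED12 in 1.

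The start sites of MED13 and MED13L, the genes for the subunits that hold the module to core Mediator, were marked in nearly every library, those of the kinase genes in fewer, and that of MED12 in 1. The value given is the summit fold, the number of reads at a peak's highest point over the local background that the peak caller estimated. A peak within 1 kb of the start site was called in 14 of 16 libraries for MED13, 15 for MED13L, 13 for CCNC, 9 for CDK8, 9 for CDK19 and 1 for MED12. The median of the 6 genes was 11 libraries, against 9 for the 26 core Mediator genes and 4 for all protein-coding genes, and 116 genes had such a peak in all 16. No super-enhancer lay within 10 kb of any of the 6 genes in any library.

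At the MED13 start site the summit folds in WT cells were 6.63 and 4.65 in esiCT UNT A and B, 6.41 and 3.72 in esiCT OXPT, 6.34 and 5.53 in esiHDAC4 UNT, and 4.13 and 3.79 in esiHDAC4 OXPT. In KO cells they were 4.86 in esiCT UNT A, 4.77 in esiCT OXPT A, 5.85 and 5.34 in esiHDAC4 UNT A and B, and 4.84 and 5.02 in esiHDAC4 OXPT A and B. Both esiCT B libraries of KO cells had no peak there, and the folds of the genotypes overlapped. The strongest summit lay at -0.463 kb from the start site, in an exon of the long noncoding RNA gene ENSG00000289293. The same window held the start sites of INTS2, an Integrator subunit gene marked in 9 libraries, 6 of them WT, and of BRIP1, a DNA helicase gene marked in 5, 4 of them WT.

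MED13L (chr12:115957905-116277693, minus strand) had summit folds of 7.25 and 6.87 in WT esiCT UNT A and B, 5.93 and 4.87 in esiCT OXPT, 5.65 and 4.57 in esiHDAC4 UNT, and 5.94 and 4.49 in esiHDAC4 OXPT. In KO cells the values were 4.27 and 4.48 in esiCT UNT A and B, 6.25 and 3.78 in esiCT OXPT, 4.11 in esiHDAC4 UNT A and no peak in B, and 5.01 and 4.48 in esiHDAC4 OXPT. The 2 highest values were those of untreated WT esiCT cells, and the genotypes overlapped. Its other 5 regions were intronic, and each was called in 1 WT library.

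CCNC (chr6:99542387-99568825, minus strand) has its start site inside the body of TSTD3, a gene on the plus strand, and the strongest summit lay in an exon of both. Its WT folds were 6.09 and 5.54 in esiCT UNT A and B, 4.09 and 2.93 in esiCT OXPT, 5.14 and 6.32 in esiHDAC4 UNT, and 5.15 and 3.40 in esiHDAC4 OXPT. In KO cells they were 5.07 in esiCT UNT A, 5.19 and 4.32 in esiCT OXPT A and B, 4.13 in esiHDAC4 UNT A and 3.99 in esiHDAC4 OXPT A. The 3 libraries without a CCNC peak were KO B libraries, all of short lists.

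Peaks at the kinase genes were called mostly in A libraries, and in KO cells only there. CDK8 (chr13:26254104-26420982, plus strand) had folds of 4.06 and 3.30 in WT esiCT UNT A and B, 3.15 in esiCT OXPT A, and 3.57 and 3.66 in esiHDAC4 UNT A and B, and no WT esiHDAC4 OXPT library had a peak. In KO cells it had 5.09 in esiCT UNT A, 5.36 in esiCT OXPT A, 5.44 in esiHDAC4 UNT A and 3.36 in esiHDAC4 OXPT A, with none in the 4 B libraries. Thus in the 3 pairs of A libraries where both genotypes had a CDK8 peak, KO was above WT each time, by 0.57 to 0.62 on the log2 scale after centring each library on its median over the 472 regions called in all 16, and by 0.33 to 0.77 without centring.

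CDK19 (chr6:110609978-110815958, minus strand) went the other way in its pairs. Its WT folds were 6.53 and 3.86 in esiCT UNT A and B, 4.70 in esiCT OXPT A, 4.13 and 3.31 in esiHDAC4 UNT, and 5.10 in esiHDAC4 OXPT A. KO cells had a CDK19 peak in 3 A libraries, at 3.75 in esiCT UNT, 2.93 in esiCT OXPT and 3.88 in esiHDAC4 UNT. KO was below WT in 3 of 3 pairs, by a log2 difference of -0.88 to -0.07. For both kinases a start-site peak was found in 7 of 8 A and 2 of 8 B libraries. Those 2 B libraries were WT UNT, and no KO B library had the peak. By treatment, each kinase had it in 6 of 8 UNT and 3 of 8 OXPT libraries. The part of list length in these patterns was not tested. MED12 (chrX:71118543-71144103, plus strand) had its 1 peak in WT esiCT UNT A, the longest list, at a fold of 5.09. Its summit had 14 reads, as computed from the deposited fold and p.

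Whether genotype changed these promoter marks was tested on the highest summit fold within 10 kb by limma across 10411 genes with a peak in at least 8 libraries, with the library letter as a block and libraries lacking a peak set to the lowest fold of their list. None of the 4 tested genes passed the threshold of an adjusted p of 0.05, although 18.6% of all genes did (1938, of which 1937 were lower in KO). The log2 difference of KO from WT was -0.72 (SE 0.27, 95% interval -1.29 to -0.16, adjusted p = 0.0622) for CDK19, -0.64 (SE 0.28, adjusted p = 0.0981) for CCNC, -0.44 (SE 0.25, adjusted p = 0.187) for MED13L and 0.12 (SE 0.29, adjusted p = 0.756) for CDK8. The median over all genes was -0.51. For MED13 the difference was -0.40, given without a test, with KO libraries lacking a peak set to the lowest fold. In the 6 pairs where both genotypes had a MED13 peak, KO minus WT averaged 0.01 ± 0.38 (centred log2, SD, 3 higher and 3 lower). For CCNC it averaged -0.03 ± 0.27 (5 pairs, 3 higher and 2 lower). For MED13L it averaged -0.32 ± 0.23 (7 pairs, 1 higher and 6 lower). MED12 had too few peaks to be tested.

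Those values depended on how libraries without a peak were treated. CDK19 passed by the exact permutation test (adjusted p = 0.0439, 1906 genes called) and without centring (limma, adjusted p = 0.0488, 2648 of 10411 genes called). By contrast, with such libraries at the lowest fold that could have been called over their lowest background (2.88 to 3.96), a choice made after seeing the data, its difference was -0.18 (limma, adjusted p = 0.429) and 344 genes were called. Without the block for the library letter 118 genes were called, without the B libraries 15 and without the A libraries 3509. CDK8 stood at 0.34 with the lowest callable fold (limma, adjusted p = 0.0878), at 0.80 without the B libraries and at -0.56 without the A libraries. CDK19 also passed without WT esiHDAC4 UNT A (limma, adjusted p = 0.0456) and CCNC without KO esiCT UNT A (limma, adjusted p = 0.0498). Over the 18 settings that left out a library or a letter, 15 to 3509 genes were called. The passes of CDK19 and CCNC were not set against the count of all genes in their own setting.

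Oxaliplatin and HDAC4 knockdown moved none of the 5 genes past the threshold. Under OXPT against UNT, limma called 0.00961% of genes (1 of 10411), and the log2 differences were -0.08 for MED13, 0.32 for MED13L, -0.50 for CDK8, -0.49 for CDK19 and 0.04 for CCNC, with adjusted p from 0.998 to 1.00. Under esiHDAC4 against esiCT it called 0.0% (0 genes, 246 with an unadjusted p under 0.05, and 0 by the exact permutation test), MED13 stood at 0.54 (SE 0.28) and the other 4 between -0.26 and -0.13. Leaving out a library put the MED13 value between -0.01 and 1.09, the former without the B libraries and the latter without the A libraries. The difference of the OXPT response between KO and WT esiCT cells was called in 0.0% of genes by limma (0, with 700 at an unadjusted p under 0.05), and was largest for CCNC at 1.14 (SE 0.80, adjusted p = 0.801).

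**Figure D2:**
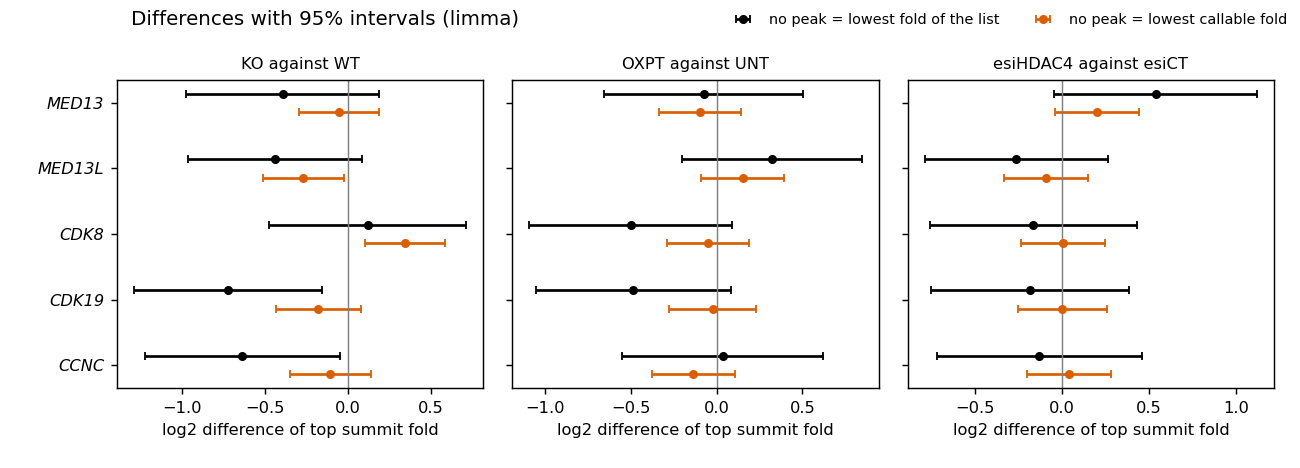
Differences in log2 highest summit fold within 10 kb (horizontal axis) for 5 genes in the 3 comparisons, with 95% intervals from limma, taking libraries without a peak at the lowest fold of their list (black) or at the lowest fold callable over their lowest background (orange). The MED13 interval in KO against WT is drawn but is no test, because MED13 was chosen by the super-enhancer calls near it. CDK19 moved from -0.72 to -0.18 in KO against WT between the treatments, and CDK8 from 0.12 to 0.34.

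By the number of peaks within 10 kb none of the 5 genes passed the threshold either. MED13L had 2, 3, 5, 2, 5, 4, 3 and 1 peaks in the WT libraries (esiCT UNT, esiCT OXPT, esiHDAC4 UNT, esiHDAC4 OXPT, A before B) and 1, 1, 2, 1, 4, 0, 3 and 1 in the KO libraries. The means were 3.12 ± 1.46 and 1.62 ± 1.30 (SD, n = 8), an exact two-sided permutation p of 0.0420 and adjusted p of 0.207 over 15817 genes. KO minus WT was -0.75 for CDK19 (exact permutation adjusted p = 0.247), -0.5 for CCNC (0.254) and -0.25 for CDK8 (0.939). For MED12 it was -0.125, and its 1 peak fixed the outcome of the test in advance. The exact test called 0.0% of genes for genotype, 0.0% for OXPT and 0.0% for esiHDAC4, with 3520, 302 and 72 genes at an unadjusted p under 0.05, and no tool other than it was run on peak numbers. The smallest p this design allows was 0.00154 for OXPT and esiHDAC4 and 0.000408 for genotype. Many genes would have had to reach such values together for any to pass, so these 0.0% shares do not show an absence of change. For OXPT and esiHDAC4 every adjusted p of the 5 genes was 1.

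The core Mediator genes, listed for comparison, gave 22 of 26 genes to the limma test. In KO against WT 6 were lower and none higher (27.3%, against 18.6% of all genes), with a median of -0.50 against -0.51. They were MED28 (-1.26, adjusted p = 0.0126), MED9 (-1.16, adjusted p = 0.0157), MED20 (-1.17, adjusted p = 0.0157), MED15 (-1.02, adjusted p = 0.0238), MED7 (-1.004, adjusted p = 0.0370) and MED26 (-0.89). With libraries lacking a peak left out, 0 of 12 testable core genes passed by limma. MED12L, the paralog of MED12, had a peak at its start site in 2 libraries, and its limma difference was -0.38 (adjusted p = 0.304).

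**Figure D3:**
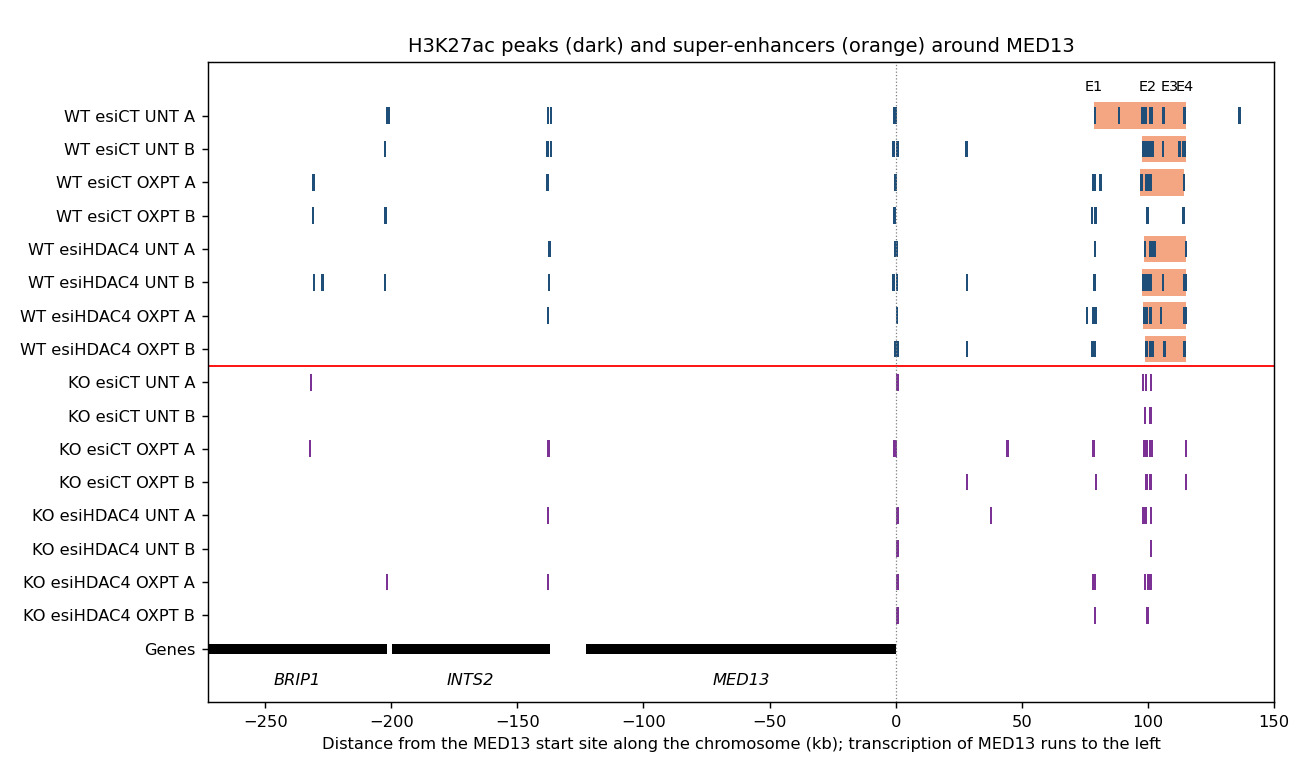
Peaks (dark) and super-enhancers (orange) of the 16 libraries by distance in kb along the chromosome from the MED13 start site, here with positive values upstream of the gene, KO peaks in purple and the elements E1 to E4 marked. E2 was called in all 16 libraries, E4 in all 8 WT and 2 KO libraries, and the super-enhancer in 7 WT libraries.

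Around MED13, KO cells had fewer peaks in every pair of libraries, and the elements upstream of the gene differed in which libraries they were called. Within 150 kb of the gene the WT libraries had 12, 10, 10, 7, 8, 12, 10 and 9 peaks and the KO libraries 5, 2, 9, 5, 6, 2, 7 and 3, in the order given for MED13L. The means were 9.75 ± 1.75 and 4.88 ± 2.47 (SD, n = 8), and KO was lower in 8 of 8 pairs. In windows of that size 25.5% of 18807 genes were called by the exact permutation test, all 4789 lower in KO, so that fewer peaks in KO was common across the genome. Without the block for the library letter the test called 0 genes, and with 1 library or 1 letter left out between 0 and 10211. Per 10000 peaks of the library, the MED13 window had 4.62 ± 0.88 in WT and 5.05 ± 2.76 in KO cells (SD, n = 8), and with every list limited to its strongest 1752 peaks the means were 1.38 and 1.12. Windows of 100 kb held 6.25 and 3.5 peaks in WT and KO cells and windows of 300 kb held 10.6 and 6, with the super-enhancer in the same 7 WT libraries. The region nearest the end of the 150 kb window, called in 1 WT library at -150 kb, overlapped that end. With either of the list scalings 0 genes were called in windows of that size by the exact test.

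OXPT and esiHDAC4 left the number of peaks near MED13 within the spread. The mean was 7.5 ± 2.51 with OXPT and 7.12 ± 4.05 without (SD, n = 8; exact permutation p = 0.784, adjusted p = 1), and 7.12 ± 3.40 with esiHDAC4 and 7.5 ± 3.34 with esiCT (exact permutation p = 0.784, adjusted p = 1). The test called 0.0% of genes for OXPT and 0.0% for esiHDAC4 (361 and 115 with an unadjusted p under 0.05). The smallest p possible was again 0.00154, which limited these counts in the same way. Within the esiCT cells the A and B libraries of WT went from 12 and 10 peaks to 10 and 7 with OXPT, while those of KO went from 5 and 2 to 9 and 5.

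E2, the centre of the cluster, was called in all 16 libraries. Its folds in WT cells were 3.39 and 3.55 in esiCT UNT A and B, 4.43 and 4.72 in esiCT OXPT, 5.36 and 5.80 in esiHDAC4 UNT, and 4.86 and 4.95 in esiHDAC4 OXPT. In KO cells they were 4.20 and 6.55 in esiCT UNT A and B, 4.56 and 5.32 in esiCT OXPT, 3.70 and 6.39 in esiHDAC4 UNT, and 3.86 and 3.51 in esiHDAC4 OXPT. The genotypes overlapped throughout, and the centred log2 difference of KO from WT averaged 0.07 ± 0.58 (SD over 8 pairs, 3 higher and 5 lower). The summits rested on 19 to 43 computed reads. The longest E2 peak of each library spanned 1086 to 4426 bases in WT and 220 to 2052 bases in KO cells, so the genotypes overlapped in this too.

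E4 was called in all 8 WT libraries and in 2 of 8 KO libraries. Its WT folds were 4.49 and 4.55 in esiCT UNT A and B, 3.34 and 4.07 in esiCT OXPT, 4.23 and 3.30 in esiHDAC4 UNT, and 4.60 and 5.99 in esiHDAC4 OXPT. The KO libraries with E4 were both esiCT OXPT, at 3.21 in A and 5.06 in B. In the 6 KO libraries without it, a peak over the lowest background needed a fold of 3.07 to 3.96, a range that holds 2 of the 8 WT values. Over that background a mark of that height would not always have been called. Lower folds could be called over a higher background, and the background at E4 in these libraries is not known. E3 was called in 4 WT libraries, at 3.24 to 4.21, and in no KO library.

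E1 was called in every OXPT library. Its calls came from 3 of 4 WT UNT, 4 of 4 WT OXPT, 0 of 4 KO UNT and 4 of 4 KO OXPT libraries, so the treatments separated in KO cells and overlapped in WT cells. The WT folds were 4.27 in esiCT UNT A, 5.53 and 3.05 in esiCT OXPT A and B, 4.26 and 3.31 in esiHDAC4 UNT, and 6.08 and 2.42 in esiHDAC4 OXPT. The KO folds were 5.28 and 3.99 in esiCT OXPT A and B and 4.14 and 3.01 in esiHDAC4 OXPT. Over all libraries 8 of 8 with OXPT and 3 of 8 without had the peak, a difference in share of 0.625 (exact two-sided permutation p = 0.0278, where 0.00154 is the smallest this design allows, adjusted p = 1 over 20090 regions). E1 was picked out after its values were seen, and both this test and its background were added after seeing the data. The exact test called 0.0% of regions for OXPT, 0.0% for genotype and 0.0% for esiHDAC4, with 378, 2740 and 37 at an unadjusted p under 0.05. The smallest p possible, 0.000408 for genotype, limited these counts as well. Leaving out 1 library or 1 letter gave differences of 0.5 to 0.75. The KO lists were longer with OXPT in 3 of 4 pairs, whose part in the E1 calls was not tested. The summits of E1 rested on 13 to 30 computed reads.

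**Figure D4:**
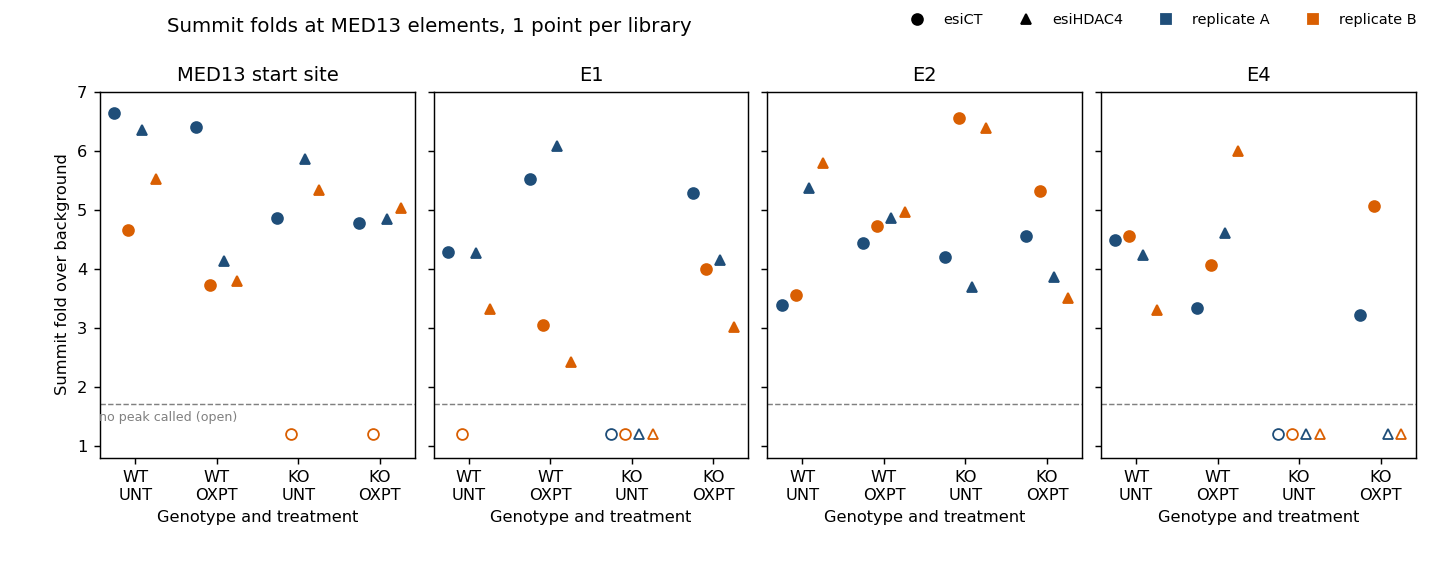
Summit fold (vertical axis) at the MED13 start site, E1, E2 and E4 in each library by genotype and treatment, with circles for esiCT, triangles for esiHDAC4, blue for A, orange for B and open symbols for no peak. E1 was open in all 4 KO UNT libraries and filled in all 4 KO OXPT libraries, while E2 was filled in all 16.

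The super-enhancer itself, chr17:62143771-62180448 when joined across libraries (36.7 kb), followed the joining of nearby peaks. Super-enhancers are stretches of peaks lying within 12.5 kb of each other that rank highest in signal. In 7 of 7 libraries its limits equalled those of the chain of peaks joined through E2, as did those of 6332 of all 8295 super-enhancers (76.3%). The chain was 36.7 and 17.3 kb in WT esiCT UNT A and B, 17.3 and 1.40 kb in esiCT OXPT, 16.7 and 17.1 kb in esiHDAC4 UNT, and 17.0 and 16.2 kb in esiHDAC4 OXPT. In KO cells it was 3.74 and 2.76 kb in esiCT UNT A and B, 3.84 and 2.35 kb in esiCT OXPT, 3.46 and 0.22 kb in esiHDAC4 UNT, and 3.12 and 0.431 kb in esiHDAC4 OXPT. The 7 libraries with the call had the 7 longest chains, and E1 lay in the chain only in WT esiCT UNT A.

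E4 was part of the chain in the 7 libraries with a super-enhancer and in no other. The chain runs through E2, so one that holds E4 spans the distance between them and is long by construction. That E4 went with the longer chains is therefore a description and no separate result. MED13 was also chosen by these same super-enhancer calls. Why the calls differed between the genotypes was not tested. In the other 3 libraries where E4 was called, its distance from the last E2 peak was 13.2 kb in WT esiCT OXPT B, 12.7 kb in KO esiCT OXPT A and 13.6 kb in KO esiCT OXPT B, each just over the 12.5 kb that joins peaks. These 3 libraries thus had both elements and lacked the call. The length covered by peaks in the chain was 2.93 to 7.50 kb with the call and 0.22 to 3.41 kb without, so the groups overlapped in it. In the KO libraries 86.3% to 100% of the library's own super-enhancers were longer than the chain, against 13.6% to 62.4% in the 7 libraries with the call.

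**Figure D5:**
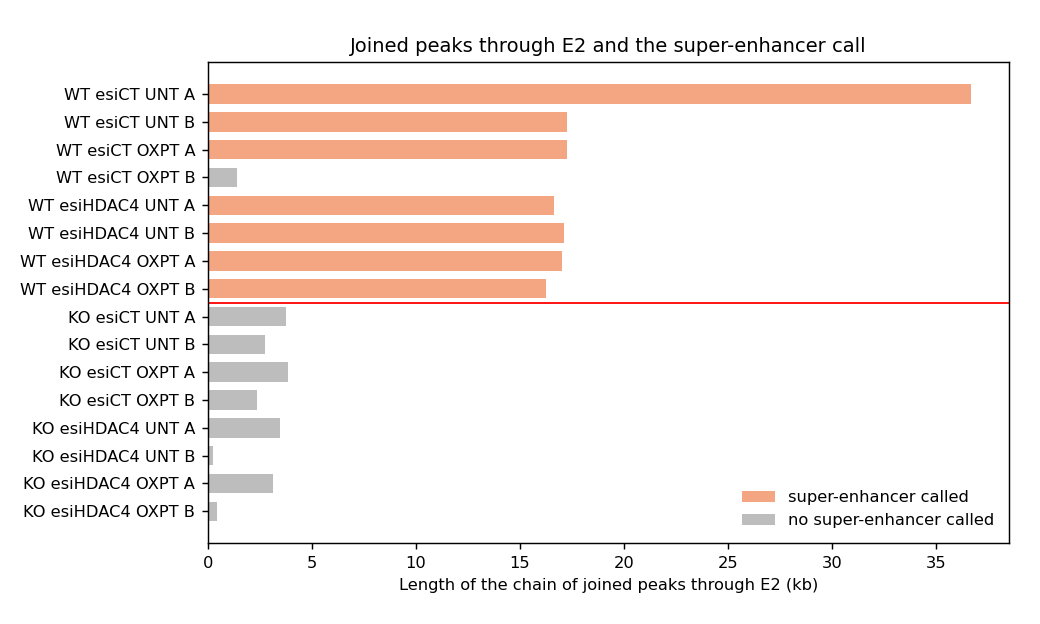
Length in kb of the chain of peaks joined within 12.5 kb through E2 in each library, in orange where the super-enhancer was called. The 7 called libraries ranged from 16.2 to 36.7 kb and the other 9 from 0.22 to 3.84 kb.

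Super-enhancer presence within 150 kb of MED13 was 3 of 8 libraries with OXPT and 4 of 8 without, and 4 of 8 with esiHDAC4 against 3 of 8 with esiCT. The exact permutation test could decide neither comparison, because every arrangement within letter and genotype gave a difference of the same size. Among 5650 genes with a super-enhancer in such a window, the exact test called 0.0% for OXPT, 0.0% for esiHDAC4 and 0.0% for genotype, with 5, 12 and 150 at an unadjusted p under 0.05, and no other tool was run on presence. The smallest p possible, 0.00154 for OXPT and esiHDAC4 and 0.000408 for genotype, limited these counts too. Of the 1873 joined super-enhancers, the 5 whose calls were most like it, equal in 15 of 16 libraries, lay at or near AKR1E2 on chromosome 10, SMAD3 on 15, SMARCA4 on 19, and DPY19L1 and FBXL13 on 7. Of these, 4 were called in 6 WT libraries and 0 KO libraries, and the SMAD3 one in 7 WT and 1 KO libraries.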

How the data were processed

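H3K27ac ChIP-seq was measured in 16 libraries, and 4 input samples were not analysed here. Per the submitters' processing notes and the study's methods, the authors trimmed reads (Trimmomatic 0.39), aligned them to hg38 (Bowtie2 2.4.4, SAMtools 1.18) and called peaks in each library (MACS2 2.2.7.1). The authors' peak lists hold positions, a score, the fold over local background (a ratio), −log10 p and q and the place of the summit. The deposited super-enhancer lists hold positions. The methods kept super-enhancers that also carried H3K4me1, without saying whether the deposited lists are those. The labels speak of pooled experiments and the methods of 2 replicates, so p-values measure only the spread between these libraries, which may be technical.

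From these lists the peaks in each gene's window, the highest summit fold and the super-enhancers were taken. Log2 folds, centred on each library's median over the 472 regions called in all 16, were fitted with limma 3.58.1 (R 4.3.3), with terms for the 8 groups and the letter. Peak numbers and presence were compared by exact two-sided permutation within letters (Python 3.11.15, scipy 1.17.1, numpy 2.4.6, pandas 2.3.3). P-values were Benjamini-Hochberg adjusted over all genes or regions tested. Scripts were tested on simulated data. All members are named, with core Mediator genes past the threshold and the 5 super-enhancers whose calls were most like that at MED13. The members and lists were chosen with earlier results of these data known. The depth of reads was not analysed here. The peak lists give no read counts. Reads at summits and backgrounds were computed from each peak's fold and p, assuming the peak caller's Poisson formula. By that formula, reads at the lowest background were 1.02 to 3.07 per library, which sets the folds that could be called over that background only. Over higher backgrounds peaks were called at lower folds, and the lowest fold of a list was 1.23 to 1.54.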

Additional observations from a re-analysis of the deposited data

Results flagged for a closer look

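The number of peaks within 150 kb of MED13 moved in opposite directions with oxaliplatin in esiCT cells of the 2 genotypes, in both the A and the B libraries. OXPT minus UNT was -2.5 peaks in WT cells (A -2, B -3) and 3.5 peaks in KO cells (A 4, B 3). The difference between the genotypes was not tested for peak numbers. The lists of the same libraries moved with it, shorter with OXPT in both WT pairs and longer in both KO pairs. Per 10000 peaks, WT went from 4.30 and 3.95 (A and B) to 4.11 and 6.63 with OXPT. KO went from 3.96 and 3.26 to 4.11 and 6.09, so the B libraries of both genotypes rose. In esiHDAC4 cells the peaks went from 8 and 12 to 10 and 9 in WT, and from 6 and 2 to 7 and 3 in KO.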

How the results depend on the processing

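Each library and each letter was left out in turn, in 18 settings. The count of genes changed in highest summit fold for KO against WT was 1938 genes, 118 without the replicate block for the letter, 1 among genes with a peak in all 16 libraries, 154 with libraries lacking a peak left out and 344 with them at the lowest callable fold, and 15 to 3509 when libraries were left out. The single OXPT call became 0 by the exact test, without the block, in all 16 libraries and at start sites, 2 with 50 kb windows, with 1 library enough and with libraries left out for lack of a peak, 10 at the lowest callable fold and 0 to 5 when libraries were left out. Changed peak numbers for KO against WT were 444 with 50 kb and 0 to 933 when libraries were left out. In 150 kb windows the 4789 genes became 0 at −log10 q of at least 10, with equal list lengths, per 10000 peaks and without the block, 2756 with 100 kb, 9011 with 300 kb, and 0 to 10211 when libraries were left out. The MED13 window means became 1.125 in WT and 0.5 in KO at that q, 1.375 and 1.125 with equal lists, and 6.25 in WT with 100 kb.

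None of the members' differences that changed sign had passed a threshold. With 50 kb windows the log2 differences were 0.16 for MED13 and -0.011 for CCNC with OXPT, 0.29 for CDK8 with esiHDAC4, and 0.55 for the MED13 interaction. Without centring CCNC stood at -0.11 with OXPT and the MED13 interaction at 0.24. With libraries lacking a peak left out, CCNC stood at -0.12 with OXPT, and the interactions of CDK8 and CDK19 at -0.084 and -0.43. At the lowest callable fold CCNC stood at -0.14 with OXPT, CDK8, CDK19 and CCNC at 0.0044, 0.0022 and 0.040 with esiHDAC4, and the interactions of CDK8 and CDK19 at -0.30 and -0.35. Peak numbers turned for MED13L with OXPT (0.125 with equal lists, 0.153 per 10000 peaks) and esiHDAC4 (-0.375 at the stricter q, -0.125 with equal lists), for CCNC with esiHDAC4 (0.125 with equal lists), and in the MED13 window with OXPT (-0.375 at the stricter q) and esiHDAC4 (0.375 at that q, 0.5 with equal lists, 0.568 per 10000 peaks). The cause was not tested.

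When libraries were left out, log2 differences ranged from -0.56 to 0.80 for CDK8 in KO against WT, with OXPT from -0.25 to 0.10 for MED13 and -0.13 to 0.20 for CCNC, with esiHDAC4 from -0.014 to 1.09 for MED13, -0.41 to 0.080 for CDK8 and -0.30 to 0.039 for CCNC, and in the interaction from -0.94 to 0.46 for MED13, -0.21 to 0.34 for MED13L and -0.11 to 0.91 for CDK8. Peak numbers ranged from -0.75 to 0.25 for CDK8 in KO against WT, -0.75 to 0.25 (OXPT) and -0.25 to 1.25 (esiHDAC4) for MED13L, and -0.5 to 1.25 and -1.25 to 0.5 in the MED13 window. The interaction could not be fitted within 1 letter. The A-minus-B deviations of the 8 groups correlated above 0.1 in 14 of 28 pairs of groups (0.02 to 0.26), so the letters were kept as a block because the study's design has them. The short lists of the KO B libraries, 1752 to 8216 peaks, limit what they can show.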
